A study of Mus musculus with 32 samples.

Results

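The Notch pathway genes described here are the receptors Notch1, Notch2 and Notch3, the ligand Jag1, and the target genes Hes1, Dtx1 and Nrarp. They were taken by name as members of 1 pathway, with earlier results of these data known, and are 7 of the 27326 genes listed in either of the deposited tables. The E15.5 table lists 6 of them, without Nrarp, and the E19.5 table lists 7. At each stage 6 passed the filter on low values and entered the tests: Nrarp, the other one at E19.5, did not pass it.

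Notch receptors are surface proteins that are cut when a ligand on a neighbouring cell binds them. The freed intracellular part moves to the nucleus, joins the DNA-binding factor RBPJ and Mastermind coactivators, and switches on target genes such as Hes1, Dtx1 and Nrarp. In the thymus, Notch1 signals that follow contact with Delta-like ligands on the epithelium commit progenitors to the T lineage, while innate lymphoid cells need the ID2 protein, which holds back E-protein transcription factors, and BCL11b is needed for T-cell commitment.

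RNA of flow-sorted embryonic mouse thymus cells was sequenced in bulk at embryonic stages E15.5 (14 libraries) and E19.5 (18), 32 libraries in all. All came from mice of a strain labelled 5x polychromILC, whose alleles the sources used here do not spell out. The gates, named as in the labels, were DN2 and 5 gates of the earlier DN1 cells that differ in BCL11b and ID2: BCL11blowID2low (E19.5 only), BCL11b+ID2+, BCL11b+ID2-, BCL11b-ID2+ and BCL11b-ID2-. Each gate had 3 libraries, except DN2 at E15.5 with 2. They are numbered 1, 2 and 3 in the earlier stage and 1, 2 and 4 in the later one, after the M number of the sample titles, which gates share. The labels do not tell whether libraries of a gate are from different animals, so each p-value reflects library-to-library spread alone, which can be technical. In bulk RNA, fewer cells of a type and less RNA per cell cannot be told apart.

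The E15.5 libraries held 12030749 to 20709387 counted reads each, the E19.5 libraries 2599470 to 9498133. Mitochondrial ribosomal RNA took 50.8 to 80.0% of the E15.5 reads and 28.7 to 58.8% of the E19.5 reads. Between 8277 and 12954 genes had a read at E15.5, and between 14387 and 18879 at E19.5. The pan-leukocyte gene Ptprc averaged 1395 to 4673 in the E19.5 gates and 2740.4 to 5015 in the E15.5 gates, and Il2ra, the CD25 chain that marks DN2 cells, was highest in DN2 at both stages. Thy1, a surface marker of T-lineage and many innate lymphoid cells, was low in BCL11b-ID2-, with means of 19.6 at E15.5 and 126 at E19.5. Levels are normalised counts as deposited, and a gene was called at an adjusted p under 0.05, from limma with Benjamini-Hochberg adjustment over all genes tested at that stage. Folds are ratios of mean levels, and log2 differences, with their standard errors (SE), are of log2(normalised count + 1). The tables of E15.5 and E19.5 were normalised separately, so no level is compared between the stages.

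Jag1, which encodes a Jagged ligand of the Notch receptors (chr2:137081456-137116644, minus strand, GRCm38), had the smallest adjusted p of the members for any difference between the E15.5 gates (0.0025, limma). It had 1501, 940 and 1404 normalised counts in the libraries of BCL11b+ID2+, against 0.729, 1.09 and 3.16 in those of BCL11b+ID2-. In BCL11b-ID2+ it had 675, 470.0 and 662, against 1.42, 1.32 and 1.35 in BCL11b-ID2-. DN2 had 2.73 and 1.23. The 6 ID2-positive libraries all lay at 470.0 or above and the 8 others at 3.16 or below, with no overlap. Jag1 was 772-fold higher in BCL11b+ID2+ than in BCL11b+ID2- (log2 difference 8.99 ± 1.77 SE, adjusted p = 0.0159, limma, n = 3 each) and 442-fold higher in BCL11b-ID2+ than in BCL11b-ID2- (7.98 ± 1.77 SE, adjusted p = 0.0332, n = 3 each). The lower means rest on 4 reads in all of BCL11b+ID2- and 6 in all of BCL11b-ID2-, so the size of these folds is rough.

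Both E15.5 calls of Jag1 were fragile as tests. The first was lost without BCL11b+ID2+ library 1 (adjusted p = 0.0704) or 3 (0.0539), without BCL11b+ID2- library 1 (0.0582) or 2 (0.0571), and in a fit of the compared gates alone (0.138). The call among BCL11b-negative gates was lost without any of its 6 libraries. Its adjusted p was 0.129, 0.126 and 0.138 without BCL11b-ID2+ library 1, 2 or 3, and 0.116, 0.160 and 0.128 without BCL11b-ID2- library 1, 2 or 3. That call was also lost without the filter (0.0591), with a block for the library number (0.0539) and in a fit of the compared gates alone (0.0637).

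At E19.5 Jag1 was highest in BCL11b+ID2+, near 0 in DN2, and well above 0 in BCL11b+ID2-. Its normalised counts were 554, 608 and 738 in BCL11b+ID2+, against 104, 137 and 145 in BCL11b+ID2-. In BCL11b-ID2+ they were 228, 277 and 278, against 6.10, 2.89 and 8.64 in BCL11b-ID2-. BCL11blowID2low had 81.3, 115 and 178, and DN2 0, 1.33 and 2.18. The order was BCL11b+ID2+, BCL11b-ID2+, then BCL11b+ID2- and BCL11blowID2low, whose libraries overlapped, then BCL11b-ID2- and DN2, without overlap elsewhere. Jag1 was 4.92-fold higher in BCL11b+ID2+ than in BCL11b+ID2- (2.29 ± 0.50 SE, adjusted p = 0.00418) and 44.4-fold higher in BCL11b-ID2+ than in BCL11b-ID2- (5.34 ± 0.50 SE, adjusted p = 7.12e-08; limma, n = 3 per gate).

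The ID2 difference in Jag1 at E19.5 was smaller among BCL11b-positive than among BCL11b-negative gates, with an interaction of -3.05 ± 0.71 SE (adjusted p = 0.00767, limma). The interaction is the ID2 difference among BCL11b-positive gates minus that among BCL11b-negative gates. Read the other way, BCL11b+ID2- exceeded BCL11b-ID2- 21.9-fold (4.32 ± 0.50 SE, adjusted p = 1.88e-06), while BCL11b+ID2+ averaged 633 ± 94.7 (SD, n = 3) against 261 ± 28.9 in BCL11b-ID2+, a difference that did not pass (1.27, adjusted p = 0.182). BCL11blowID2low was 21.3-fold above BCL11b-ID2- (4.22 ± 0.50 SE, adjusted p = 2.69e-06) and 5.07-fold below BCL11b+ID2+ (-2.39 ± 0.50 SE, adjusted p = 0.00563). DN2, with 5 reads over its libraries, was 109.9-fold below BCL11b+ID2- (-6.04 ± 0.50 SE, adjusted p = 1.06e-08). Against BCL11b-ID2-, where it averaged 1.17 ± 1.1 and 5.88 ± 2.88 (SD, n = 3 each), DN2 did not pass (-1.72, adjusted p = 0.0678).

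Jag1 is also made by epithelium and endothelium, so the summed levels of their markers stand beside it. At E15.5 thymic epithelial markers summed to 0 to 25.7 in BCL11b+ID2+ and 0 to 13.6 in BCL11b-ID2+, against 8.74 to 154 in BCL11b+ID2- and 3.30 to 39.8 in BCL11b-ID2-. Endothelial markers summed to 1.64 to 235 and 131 to 989 in the same ID2-positive gates, against 74.4 to 924 and 138 to 1261 in the ID2-negative ones. In DN2, where Jag1 was near 0, the epithelial sum was 0 and the endothelial sum 18.4 to 57.4. Of the 7 endothelial markers 2 are in the E15.5 table, Pecam1 and Esam. Esam was at 0 in every gate but BCL11b-ID2-, so elsewhere the endothelial sum is Pecam1 alone. At E19.5 the epithelial sum was 44.2 to 80.1 in BCL11b+ID2+ and 32.9 to 68.3 in BCL11b-ID2+. It was 64.3 to 141 in BCL11b+ID2- and 39.4 to 80.3 in BCL11b-ID2-. The endothelial sum was 101 to 255 and 124 to 201 in the ID2-positive gates, in the same order. It was 361 to 713, all of it Pecam1, in BCL11b+ID2- and 217 to 340 in BCL11b-ID2-. The part of these cells in the Jag1 result was not tested.

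Markers of innate lymphoid cells differed between the same gates, in part along with Jag1 and in part against it. At E15.5 the summed level of 6 natural killer cell markers was 12208 to 16182 in BCL11b-ID2+, against 237 to 924 in BCL11b-ID2-. Among BCL11b-positive gates that sum overlapped, at 932 to 4062 in BCL11b+ID2+, against 1902 to 4581 in BCL11b+ID2-. The 5 group 2 innate lymphoid cell (ILC2) markers in that table were higher with ID2 in both pairs, at 12629 to 16123 in BCL11b+ID2+, against 158 to 1274 in BCL11b+ID2-, and at 2697 to 7383 in BCL11b-ID2+, against 218 to 910.3 in BCL11b-ID2-.

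At E19.5 the natural killer sum was 16359.7 to 20012 in BCL11b-ID2+, against 109.95 to 255 in BCL11b-ID2-. Among BCL11b-positive gates it ran against Jag1, at 719 to 1369 in BCL11b+ID2+, against 4754 to 5972 in BCL11b+ID2-. The ILC2 sum was 5709.6 to 6565 in BCL11b+ID2+, against 772 to 1008 in BCL11b+ID2-, and 564 to 699 in BCL11b-ID2+, against 91.5 to 174 in BCL11b-ID2-. The part of these cells in the results for Jag1 and the other members was not tested.

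**Figure D1:**
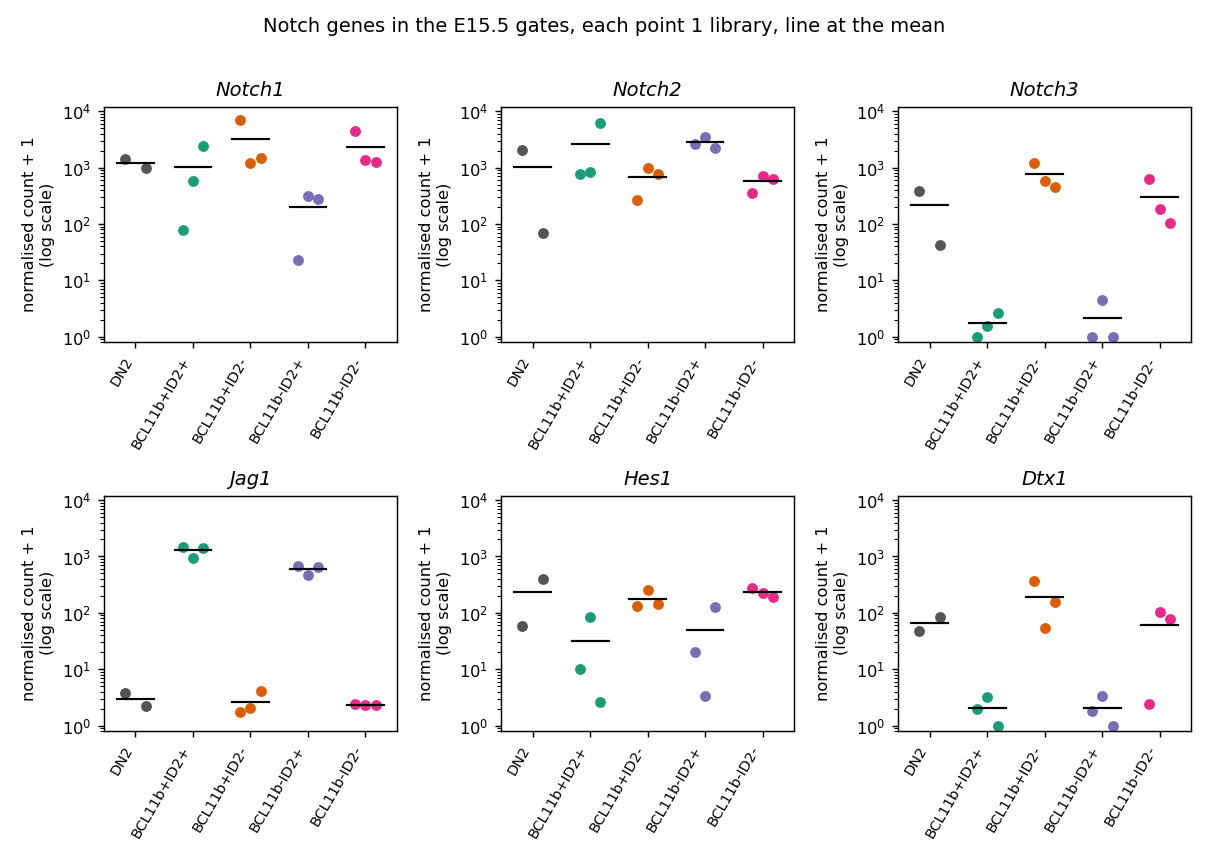
Normalised count plus 1 (log scale) of the 6 Notch genes listed at E15.5, by gate, with 1 point a library and a line at the mean of each gate. The Jag1 points of both ID2-positive gates lie far above those of the other gates, and those of Notch3 far below them.

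Notch3, a receptor that is itself induced by Notch signals in thymocytes (chr17:32120820-32166852, minus strand), had the reverse pattern to Jag1 within the ID2 pairs. At E15.5 it had 0, 0.560 and 1.64 normalised counts in BCL11b+ID2+, against 1223, 587 and 459 in BCL11b+ID2-. In BCL11b-ID2+ it had 0, 3.52 and 0, against 620.3, 184 and 101 in BCL11b-ID2-, and DN2 had 391 and 41.7. Every ID2-positive library lay below every other library. Notch3 was 1034-fold lower in BCL11b+ID2+ than in BCL11b+ID2- (95% counting interval 286 to 8534; log2 difference -8.75 ± 1.85 SE, adjusted p = 0.0243, limma). The interval covers counting error only. Among BCL11b-negative gates the mean was 258 times smaller with ID2 (88.1 to 1249), a difference that did not pass (-7.10, adjusted p = 0.0926).

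The E15.5 call of Notch3 was lost without BCL11b+ID2+ library 1 (adjusted p = 0.0729) or 3 (0.0539) and without BCL11b+ID2- library 1 (0.106), 2 (0.0751) or 3 (0.0750). It was also lost without the filter (0.0527), with edgeR (0.0715), with library weights (0.0528) and in a fit of the compared gates alone (0.198).

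At E19.5 Notch3 was near 0 in the ID2-positive gates and in BCL11blowID2low. It had 1.78, 1.11 and 0 normalised counts in BCL11b+ID2+, against 149, 110.3 and 129 in BCL11b+ID2-. In BCL11b-ID2+ it had 3.59, 13.1 and 0, against 109, 103 and 74.9 in BCL11b-ID2-. BCL11blowID2low had 6.64, 2.24 and 4.04, and DN2, the highest gate, had 308, 236 and 328. The gates DN2, BCL11b+ID2- and BCL11b-ID2- followed one another without overlap, and the remaining gates lay below them, BCL11b-ID2+ overlapping BCL11blowID2low. Notch3 was 135-fold lower in BCL11b+ID2+ than in BCL11b+ID2- (95% counting interval 37.3 to 1112; -6.17 ± 0.78 SE, adjusted p = 9.99e-06). It was 17.2-fold lower in BCL11b-ID2+ than in BCL11b-ID2- (-4.57 ± 0.78 SE, adjusted p = 0.000177; limma, n = 3 per gate).

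BCL11blowID2low also fell in Notch3, 22.2-fold against BCL11b-ID2- (-4.26 ± 0.78 SE, adjusted p = 0.000428) and 30.1-fold against BCL11b+ID2- (-4.70 ± 0.78 SE, adjusted p = 0.000567). The gap between DN2 at 291 ± 48.5 and BCL11b+ID2- at 130 ± 19.46 (SD, n = 3 each) did not pass (1.16, adjusted p = 0.354), nor did that between BCL11b+ID2- and BCL11b-ID2- at 95.6 ± 18.1 (0.44, adjusted p = 0.770). The interaction in Notch3 was -1.60 (adjusted p = 0.433).

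Notch3 also marks pericytes, so the summed level of mesenchyme and pericyte markers stands beside it. At E19.5 it was 341 to 469 in DN2, 28.6 to 129 in BCL11b+ID2- and 722 to 1014 in BCL11b-ID2-, against 7.25 to 43.1 in BCL11b+ID2+, 9.58 to 10.6 in BCL11b-ID2+ and 0 to 78.3 in BCL11blowID2low. The sum was high in DN2 and BCL11b-ID2-, while that of BCL11b+ID2- overlapped those of BCL11b+ID2+ and BCL11blowID2low. Most of it was Pdgfrb, with means of 412 in DN2, 87.0 in BCL11b+ID2- and 644 in BCL11b-ID2-. In DN2, Col1a1, Col3a1, Dcn, Lum and Rgs5 were at 0, and in BCL11b+ID2- Pdgfra, Col3a1, Dcn, Lum and Rgs5 were. In BCL11b-ID2- all 8 markers were above 0. At E15.5 the sum was 168 to 171 in DN2, 307 to 1074 in BCL11b+ID2- and 525 to 1815 in BCL11b-ID2-, against 1.0 to 28.0 in BCL11b+ID2+ and 2.34 to 115 in BCL11b-ID2+. The part of these markers in the Notch3 result was not tested.

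The sequences before the RefSeq starts of Jag1 and Notch3 are shown because these genes differed in opposite directions within each ID2 pair. Each is the 250 bases before the RefSeq start on GRCm38.p6, read 5′ to 3′ on the gene's minus strand, chr2:137116521-137116770 for Jag1 and chr17:32166891-32167140 for Notch3. Capitals mark the E-box match, the letters CANNTG that E proteins bind.
Jag1 promoter: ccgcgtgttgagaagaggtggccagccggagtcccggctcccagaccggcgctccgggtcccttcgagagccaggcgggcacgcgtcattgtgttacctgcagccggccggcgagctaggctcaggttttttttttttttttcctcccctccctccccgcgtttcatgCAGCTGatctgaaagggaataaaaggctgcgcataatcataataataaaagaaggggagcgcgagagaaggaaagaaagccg
Notch3 promoter: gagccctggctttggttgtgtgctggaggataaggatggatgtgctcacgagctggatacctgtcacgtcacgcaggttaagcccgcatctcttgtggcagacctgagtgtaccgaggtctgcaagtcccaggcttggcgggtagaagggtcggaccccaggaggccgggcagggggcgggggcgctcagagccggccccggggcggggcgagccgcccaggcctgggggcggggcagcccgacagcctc
The E-box of Jag1 reads CAGCTG and begins 82 bases before the RefSeq start. The gene span given here for Jag1 reaches 137116644, past that start, so part of the window, with the E-box, lies inside it. The windows of Notch1 and Dtx1 lie wholly inside their gene spans. Of the 6 members with a promoter in the table, Jag1 and Nrarp hold a CANNTG, against 66.2% of all 32851 promoters of the same length. The RBPJ letters GTGGGAA, searched on both strands like the E-box, are in 0 of the 6, against 5.42% of all promoters. No match says only that these letters are not in this window.

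Notch1, the receptor of T-lineage commitment (chr2:26457903-26516663, minus strand), had a lower mean with ID2 in each pair, like Notch3, but was never absent. Unlike Notch3, its E19.5 libraries of BCL11b+ID2- overlapped those of the ID2-positive gate BCL11b-ID2+. At E19.5 it had 1391, 1715 and 1591 normalised counts in DN2 and 639, 408 and 386 in BCL11blowID2low. It had 438, 279.7 and 274 in BCL11b+ID2+, against 946, 519.6 and 492 in BCL11b+ID2-. In BCL11b-ID2+ it had 451, 779 and 635, against 1750.2, 1296 and 1595 in BCL11b-ID2-. DN2 and BCL11b-ID2- overlapped at the top, and every one of their libraries lay above every library of the other gates.

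Among these E19.5 gates Notch1 was 1.97-fold lower in BCL11b+ID2+ than in BCL11b+ID2- (-0.95 ± 0.27 SE, adjusted p = 0.0267) and 2.49-fold lower in BCL11b-ID2+ than in BCL11b-ID2- (-1.34 ± 0.27 SE, adjusted p = 0.000961). With BCL11b it was lower in both pairs, 2.37-fold in BCL11b+ID2- than in BCL11b-ID2- (-1.30 ± 0.27 SE, adjusted p = 0.00149) and 1.88-fold in BCL11b+ID2+ than in BCL11b-ID2+ (-0.91 ± 0.27 SE, adjusted p = 0.0444). DN2 was 2.4-fold above BCL11b+ID2- (1.32 ± 0.27 SE, adjusted p = 0.00134), and BCL11blowID2low 3.24-fold below BCL11b-ID2- (-1.72 ± 0.27 SE, adjusted p = 7.29e-05). The interaction was 0.39 (adjusted p = 0.606, limma). The call of BCL11b+ID2+ against BCL11b+ID2- was lost without BCL11b+ID2+ library 2 (adjusted p = 0.109) or 4 (0.121), without BCL11b+ID2- library 1 (0.197) and in a fit of those gates alone (0.0945). The call of BCL11b+ID2+ against BCL11b-ID2+ was lost without BCL11b+ID2+ library 2 (0.172) or 4 (0.190), without BCL11b-ID2+ library 2 (0.255) or 4 (0.135), without the filter (0.0638), with edgeR (0.0521) and in a fit of those gates alone (0.0566).

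At E15.5 Notch1 had 76.0, 578 and 2442 normalised counts in BCL11b+ID2+, against 6999, 1209 and 1502 in BCL11b+ID2-. It had 21.6, 312 and 272 in BCL11b-ID2+, against 4381, 1372 and 1241 in BCL11b-ID2-, and 1433 and 993 in DN2. The BCL11b-negative pair did not overlap and the BCL11b-positive pair did, and neither passed (-3.97, adjusted p = 0.157, and -2.29, adjusted p = 0.435, limma).

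Notch2, the remaining receptor (chr3:98013527-98150361, plus strand), is known for its role in marginal zone B cells and some dendritic cells. Its highest mean was in an ID2-positive gate at each stage, but it did not mirror Notch1 gate by gate. At E19.5 it had 595, 830.2 and 882 normalised counts in BCL11b+ID2+, against 245, 375 and 394 in BCL11b+ID2-. In BCL11b-ID2+ it had 565, 479 and 407, against 459.8, 469.5 and 649 in BCL11b-ID2-. BCL11blowID2low had 710.4, 587 and 651, and DN2 had 247, 177 and 156. BCL11b+ID2+ was 2.28-fold above BCL11b+ID2-, without overlap (1.19 ± 0.25 SE, adjusted p = 0.00269), while the BCL11b-negative pair overlapped (-0.12, adjusted p = 0.828). These ID2 differences differed from each other, with an interaction of 1.31 ± 0.35 SE (adjusted p = 0.0200, limma).

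DN2 was lowest in Notch2, 2.72-fold below BCL11b-ID2- (-1.45 ± 0.25 SE, adjusted p = 0.00102) and 1.75-fold below BCL11b+ID2- (-0.80 ± 0.25 SE, adjusted p = 0.0305). BCL11blowID2low was 1.92-fold above BCL11b+ID2- (0.97 ± 0.25 SE, adjusted p = 0.0200, limma). The interaction was lost without BCL11b+ID2+ library 2 (adjusted p = 0.0524) or 4 (0.0580), BCL11b+ID2- library 1 (0.0578), BCL11b-ID2+ library 4 (0.0582) or BCL11b-ID2- library 4 (0.0645). DN2 against BCL11b+ID2- was lost without BCL11b+ID2- library 2 (0.103) or 4 (0.109), DN2 library 2 (0.0885) or 4 (0.133), without the filter (0.0588) and in a fit of those gates alone (0.133). BCL11blowID2low against BCL11b+ID2- was lost without BCL11b+ID2- library 1 (0.116), BCL11blowID2low library 1 (0.0574), with library weights (0.0711) and in a fit of those gates alone (0.10).

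At E19.5 macrophage and dendritic cell markers were lowest in the gates with the least Notch2. Their summed level was 37.1 to 44.0 in DN2 and 12.1 to 42.8 in BCL11b+ID2-. It was 398 to 885 in BCL11b+ID2+, 202 to 324 in BCL11blowID2low, 310 to 406 in BCL11b-ID2+ and 331 to 490 in BCL11b-ID2-. That order did not hold at E15.5, where the sum was 116 to 276 in BCL11b-ID2-, the gate with the lowest mean Notch2. It was 1.17 to 210 in BCL11b-ID2+, the gate with the highest. DN2 had 0 to 1.23, BCL11b+ID2- 0 to 122 and BCL11b+ID2+ 17.0 to 375. The part of these markers in the Notch2 result was not tested.

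At E15.5 Notch2 had 773, 841 and 6239 normalised counts in BCL11b+ID2+, against 266, 974 and 779 in BCL11b+ID2-. It had 2676, 3433 and 2266 in BCL11b-ID2+, against 361, 712 and 640.0 in BCL11b-ID2-, and 2017 and 67.4 in DN2. The BCL11b-negative pair was apart, with BCL11b-ID2+ higher, and the BCL11b-positive pair overlapped. Neither passed (2.33, adjusted p = 0.497, and 1.44, adjusted p = 0.640, limma).

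Set against one another per kilobase of exon, the receptors changed places between gates. At E15.5 Notch2 made up 78.6% of the sum of the 3 receptors in BCL11b+ID2+ (libraries 65.7 to 93.1%) and 94.8% in BCL11b-ID2+ (91.7 to 99.4%), against 23.6% in BCL11b+ID2- and 27.0% in BCL11b-ID2-. DN2 averaged 31.7%, from 7.70 and 55.7% in its libraries. At E19.5 the Notch2 share was 74.8% in BCL11b+ID2+, against 34.7% in BCL11b+ID2-. Among BCL11b-negative gates it was 50.6% with ID2 and 28.8% without. It was 64.3% in BCL11blowID2low and 11% in DN2. Notch1 led in DN2 with 67.1% and in BCL11b-ID2- with 64.1%. Notch3 reached 21.9% in DN2 and 17.2% in BCL11b+ID2-, and made up 0.132% in BCL11b+ID2+.

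**Figure D2:**
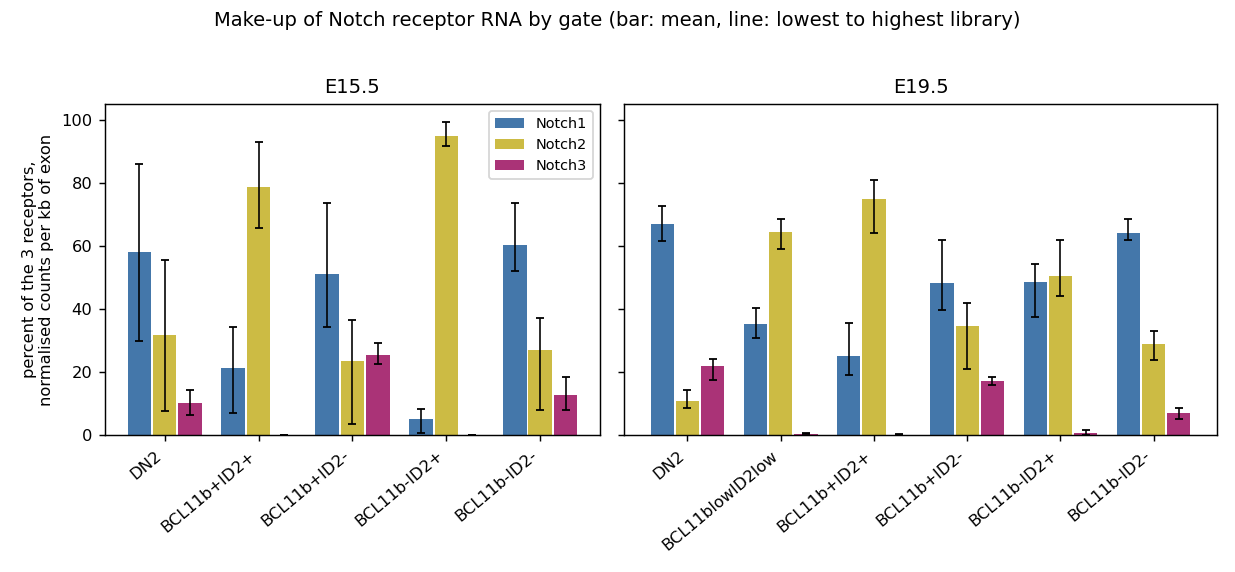
Share of Notch1, Notch2 and Notch3 in the sum of the 3 receptors, in percent of normalised counts per kilobase of exon, by gate at each stage. Bars are means over libraries and lines run from the lowest to the highest library. Notch2 has the tallest bar in BCL11b+ID2+ at both stages.

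Hes1, a transcriptional repressor and direct Notch target (chr16:30064384-30067796, plus strand), was highest at E19.5 in DN2 and BCL11b-ID2-. It had 253, 189 and 188 normalised counts in DN2 and 0, 3.35 and 8.88 in BCL11blowID2low. BCL11b+ID2+ had 80.1, 106 and 90.4, against 55.5, 35.4 and 21.2 in BCL11b+ID2-. BCL11b-ID2+ had 24.5, 33.0 and 32.5, against 251, 181 and 132 in BCL11b-ID2-. Hes1 therefore lay higher with ID2 in the BCL11b-positive pair and lower with ID2 in the BCL11b-negative pair, without overlap in either.

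The E19.5 fall of Hes1 in BCL11b-ID2+ against BCL11b-ID2- was 6.26-fold (-2.57 ± 0.62 SE, adjusted p = 0.00544), while the difference between BCL11b+ID2+ and BCL11b+ID2- did not pass (1.37, adjusted p = 0.207). The interaction of 3.94 ± 0.88 SE was called (adjusted p = 0.00555). BCL11b+ID2- was 5.03-fold below BCL11b-ID2- (-2.35 ± 0.62 SE, adjusted p = 0.0115), a call lost without BCL11b+ID2- library 4 (0.0539) or BCL11b-ID2- library 1 (0.0594). DN2 was 5.62-fold above BCL11b+ID2- (2.55 ± 0.62 SE, adjusted p = 0.00625). BCL11blowID2low was the low end in each of its 3 comparisons, 46.1-fold below BCL11b-ID2- (-5.70 ± 0.62 SE, adjusted p = 8.43e-07), 22.6-fold below BCL11b+ID2+ (-4.72 ± 0.62 SE, adjusted p = 4.1e-05) and 9.16-fold below BCL11b+ID2- (-3.35 ± 0.62 SE, adjusted p = 0.00183; limma). The last of these was lost in a fit of those gates alone (0.150).

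At E15.5 Hes1 had 9.0, 82.3 and 1.64 normalised counts in BCL11b+ID2+, against 131, 253 and 141 in BCL11b+ID2-. It had 19.2, 2.34 and 127 in BCL11b-ID2+, against 276, 226 and 193 in BCL11b-ID2-, and 58.1 and 399.5 in DN2. Both pairs were apart with the ID2-positive gate lower, and neither passed (-3.69, adjusted p = 0.421, and -3.48, adjusted p = 0.595, limma).

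Dtx1, an E3 ubiquitin ligase of the Deltex family induced by Notch (chr5:120680202-120711927, minus strand), had its highest mean at E19.5 in BCL11blowID2low. It had 148, 115 and 248 normalised counts there, against 8.54, 6.51 and 5.76 in BCL11b-ID2-, and was 24.5-fold higher (4.37 ± 1.13 SE, adjusted p = 0.00988, limma). Elsewhere it varied within gates, with 14.1, 147 and 44.3 in DN2 and 1.74, 189.6 and 109.8 in BCL11b+ID2-. BCL11blowID2low overlapped BCL11b+ID2- and did not pass against it (2.07, adjusted p = 0.294). BCL11b+ID2+ had 10.7, 29.8 and 11.2, below BCL11blowID2low without overlap, but the difference did not pass either (3.31, adjusted p = 0.105). BCL11b-ID2+ had 2.39, 0 and 2.95. BCL11blowID2low thus had high Dtx1 beside the lowest Hes1 of any gate.

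At E15.5 Dtx1 was nearly silent with ID2, as Notch3 was. It had 1.0, 2.24 and 0 normalised counts in BCL11b+ID2+, against 360.6, 53.3 and 155 in BCL11b+ID2-. It had 0.799, 2.34 and 0 in BCL11b-ID2+, against 1.42, 102 and 76.9 in BCL11b-ID2-, and 46.5 and 82.1 in DN2. The BCL11b-positive pair did not overlap, and the BCL11b-negative pair did through BCL11b-ID2- library 1. Neither passed (-6.28, adjusted p = 0.152, and -3.89, adjusted p = 0.573, limma).

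Nrarp, a small ankyrin-repeat protein that feeds back on the Notch complex (chr2:25180758-25183339, plus strand), was too low to test. At E19.5 it had 23.4, 6.91 and 10.04 normalised counts in BCL11b-ID2+, against 9.76, 1.45 and 3.84 in BCL11b-ID2-. It had 0, 1.11 and 3.30 in BCL11b+ID2+ and no reads in BCL11b+ID2-. DN2 had 4.24, 2.66 and 0.727, and BCL11blowID2low 1.66, 2.24 and 1.61. The BCL11b-ID2+ libraries were the highest on average, and they overlapped those of BCL11b-ID2-.

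**Figure D3:**
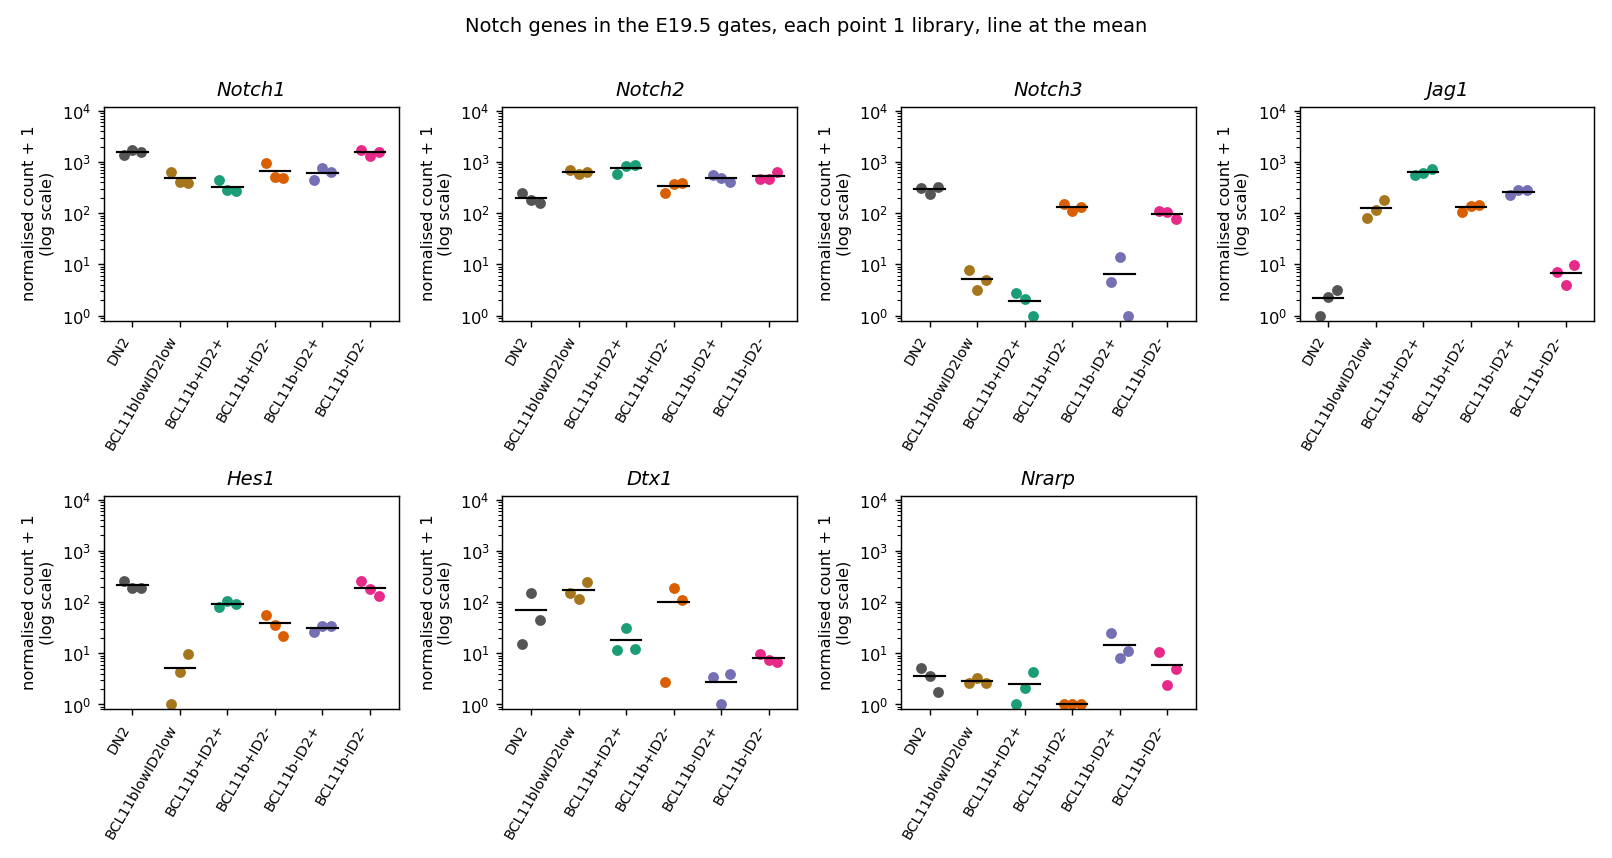
Normalised count plus 1 (log scale) of the 7 Notch genes at E19.5, by gate, with 1 point a library and a line at the mean of each gate. Notch1 and Hes1 are high in DN2 and BCL11b-ID2-, and Notch3 in these gates and BCL11b+ID2-. Jag1 is highest in BCL11b+ID2+, and Notch2 has its highest mean there, overlapping BCL11blowID2low. Dtx1 has its highest mean in BCL11blowID2low.

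Counted over the tested members, 2 of 6 were called in BCL11b+ID2+ against BCL11b+ID2- at E15.5, where 0.719% of all genes were called. Of these 1 was higher (0.398% of all genes) and 1 lower (0.321%). In BCL11b-ID2+ against BCL11b-ID2-, 1 of 6 was called (0.467% of all genes), 1 higher (0.321%) and 0 lower (0.146%). The median log2 difference of the 6 was -2.99 among BCL11b-positive gates, with -0.22 over all genes, and -3.69 among BCL11b-negative gates, with -0.14 over all genes. Over any difference between the E15.5 gates, Jag1 (adjusted p = 0.0025) and Notch3 (0.0105) were called, where 1.52% of genes were. No member was called in BCL11b+ID2- against BCL11b-ID2- (0.00972% of genes), or in BCL11b+ID2+ against BCL11b-ID2+ (0.0778%, with 0.0389% higher and 0.0389% lower). None was called in the interaction (0%) or in DN2 against BCL11b+ID2- or BCL11b-ID2- (0% each). In these limma tests 0 members had an unadjusted p under 0.05, and edgeR and DESeq2 also called 0.

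At E19.5, 4 of 6 members were called in BCL11b+ID2+ against BCL11b+ID2-, where 8.73% of all genes were, 2 of them higher (5.12% of genes) and 2 lower (3.61%). In BCL11b-ID2+ against BCL11b-ID2- 4 were called (15.9% of genes), 1 higher (8.82%) and 3 lower (7.03%). In BCL11b+ID2- against BCL11b-ID2- 3 were called (14.9%), 1 higher (7.51%) and 2 lower (7.42%). In BCL11b+ID2+ against BCL11b-ID2+ the 1 called (6.03%) was lower (2.88%). The interaction called 3 (9.28%), 2 positive (4.57%) and 1 negative (4.7%). DN2 differed from BCL11b+ID2- in 4 (16.2%), 2 higher (6.77%) and 2 lower (9.41%). It differed from BCL11b-ID2- in 1 (2.98%), which was lower (2.08%, with 0.903% higher).

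BCL11blowID2low differed at E19.5 from BCL11b-ID2- in 5 members (14% of genes), 2 higher (6.7%) and 3 lower (7.35%). It differed from BCL11b+ID2- in 3 (6.91%), 1 higher (3.06%) and 2 lower (3.85%), and from BCL11b+ID2+ in 2, (4.43%), both lower (2.97%). All 6 tested members were called for any difference between the gates, where 32.9% of genes were, with adjusted p between 2.41e-11 for Jag1 and 0.0023 for Dtx1. The median log2 difference of the members was 0.12 among BCL11b-positive gates (0.00 over all genes) and -1.53 among BCL11b-negative gates (-0.01 over all genes).

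**Figure D4:**
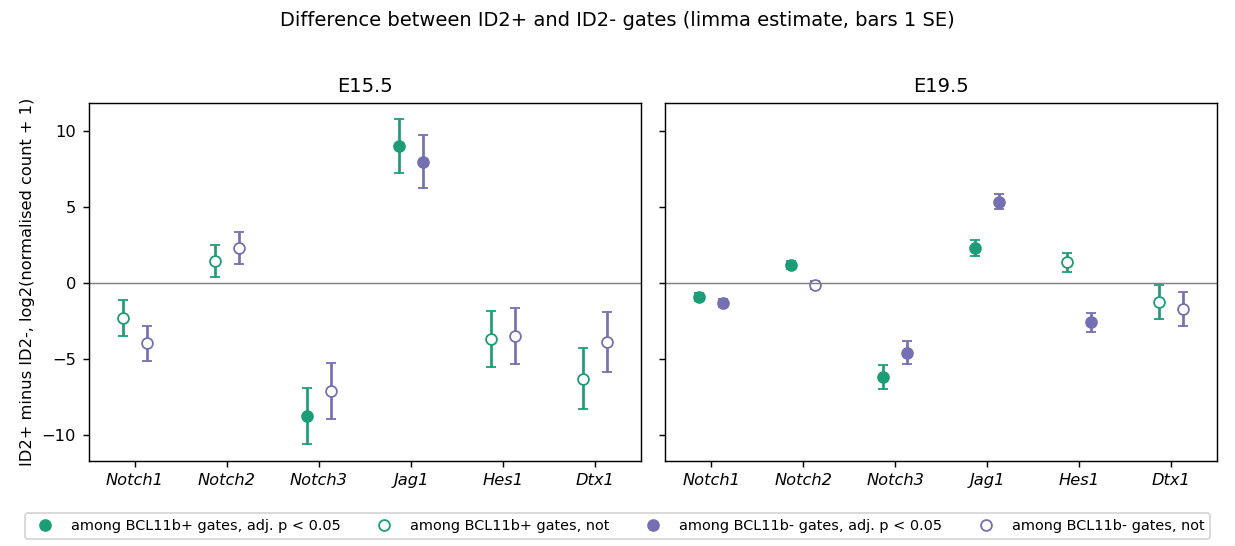
Log2 difference (normalised count + 1) of the ID2-positive minus the ID2-negative gate for the 6 tested members, at E15.5 and E19.5, among BCL11b-positive and among BCL11b-negative gates, with bars of 1 SE. Filled points passed an adjusted p under 0.05, and Jag1 lies above 0 and Notch3 below 0 in all 4 pairs.

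Across libraries the members fell into opposite sets. The correlation of log2 levels of Jag1 and Notch3 was -0.946 over the 14 E15.5 libraries and -0.80 over the 18 E19.5 libraries, and that of Jag1 and Notch1 was -0.666 and -0.893. Notch1 and Notch3 correlated at 0.764 and 0.793, and Jag1 and Notch2 at 0.636 and 0.647. The targets did not hold one relation, since Hes1 and Dtx1 had 0.602 at E15.5 and -0.374 at E19.5. These are descriptions over libraries that share gates and depth.

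The genes whose levels ran most like a member over the 18 E19.5 libraries are named with their correlation there and over the 14 E15.5 libraries. For Notch1 they were Tspan2 (0.943 and 0.624), Dnmt3b, a DNA methyltransferase (0.935 and 0.870), and Cd93, a surface protein of early progenitors (0.928 and 0.822). For Notch3 they were Ephb2 (0.952 and 0.552), the mismatch repair gene Msh6 (0.936 and 0.610) and the progenitor factor gene Myb (0.923 and 0.833). Jag1 ran with Uhrf1bp1l (0.966 and 0.673), H2-Q7 (0.964 and 0.601) and Cytip (0.963 and 0.748). Hes1 ran with Pcyox1 (0.916 and 0.663), Tcf4, an E-protein gene (0.896 and 0.654), and Calcrl (0.895 and 0.700). The likeness was weaker for Notch2, with Daglb (0.893, not tested at E15.5), Ap5b1 (0.881 and 0.261) and the cathepsin gene Ctss (0.858 and 0.497). It was weakest for Dtx1, with Car13 (0.801 and 0.299), Pdlim1 (0.801 and 0.302) and Pgam1 (0.795 and -0.172).

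The wider pathway was read from 49 further genes of receptors and ligands, receptor processing and glycosylation, the nuclear complex, and targets. At E15.5, 32 were tested and limma called 0 in each comparison between gates, where it called 0 to 0.719% of all genes. An unadjusted p under 0.05 was reached by 3 to 8 of the 32, and by 623 to 1285 of all 10289 genes. Of the 32, edgeR called 0 and DESeq2 1 to 3, and the DESeq2 count was not set against all genes. Among the 32 only Il2ra, the marker of DN2 (adjusted p = 0.00266, limma), Neurl3 (0.0118) and Gata3 (0.0469) were called for any difference between the E15.5 gates. Over all genes 1.52% were. Gata3 was lost without the filter (0.114) and with the block for the library number (0.0636), Neurl3 without BCL11b-ID2+ library 2 (0.0539) or 3 (0.0653). Gata3 was lost without any 1 of the 14 libraries but BCL11b+ID2- library 1, at adjusted p up to 0.124.

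Of ligands and the enzymes that act on them, Lfng and Neurl3 were higher with ID2 in both E19.5 pairs, and Dll1 in the BCL11b-negative pair. Dll1, a Delta-like ligand gene, had 64.1, 21.5 and 32.5 normalised counts in BCL11b-ID2+, against 0, 0 and 0.96 in BCL11b-ID2- (4.87, adjusted p = 0.000311, limma). BCL11b+ID2+ had 0, 2.21 and 0 of Dll1, against no reads in BCL11b+ID2-, and lay below BCL11b-ID2+ (-4.63, adjusted p = 0.00106). DESeq2 did not call either difference in Dll1 (0.268 and 0.579), and edgeR did not call the second (0.0782). At E15.5 the BCL11b-ID2+ libraries had 24.0, 83.2 and 356.3 of Dll1, the highest in their table.

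Lfng, a fringe glycosyltransferase that changes which ligands a Notch receptor answers, had 344, 216 and 214 normalised counts in BCL11b+ID2+, against 79.8, 115 and 37.8 in BCL11b+ID2- at E19.5, 3.33-fold higher (1.82, adjusted p = 0.00241). It had 389.8, 444 and 393 in BCL11b-ID2+, against 70.7, 52.1 and 46.1 in BCL11b-ID2-, 7.26-fold higher (2.86, adjusted p = 7.63e-06). BCL11blowID2low, with 196, 266 and 233, was 4.12-fold above BCL11b-ID2- (adjusted p = 0.000511) and 2.99-fold above BCL11b+ID2- (0.00698, but 0.0872 in a fit of those gates alone; limma). Both ID2-positive gates and BCL11blowID2low thus lay above the ID2-negative gates without overlap.

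Neurl3, of the Neuralized family of ubiquitin ligases, had 244, 356 and 244 normalised counts in BCL11b+ID2+ and no reads in BCL11b+ID2- at E19.5. It was at least 226-fold higher, taking 3 reads over the gate as the floor (8.12, adjusted p = 7.82e-07, limma). BCL11b-ID2+ had 681, 749 and 489.5, against 100.01, 121 and 108 in BCL11b-ID2- (5.84-fold, adjusted p = 0.0444). That last call of Neurl3 was lost without the filter (0.067) and without any 1 of its 6 libraries, namely BCL11b-ID2+ library 1 (0.121), 2 (0.136) or 4 (0.0809) and BCL11b-ID2- library 1 (0.114), 2 (0.0978) or 4 (0.108). DN2 was 13.5-fold below BCL11b-ID2- (adjusted p = 0.00309). At E15.5 Neurl3 had 578, 846 and 829.8 in BCL11b-ID2+, against 16.3, 0.660 and 1.35 in BCL11b-ID2-.

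In the nuclear complex, Rbpj, the DNA-binding partner of every Notch receptor, was highest in BCL11b-ID2+. At E19.5 it had 561, 610.4 and 518.5 normalised counts there, against 116, 211 and 161 in BCL11b-ID2-, 3.46-fold higher (1.82, adjusted p = 0.000298). BCL11b+ID2+, with 110.4, 153 and 255, was 3.26-fold below BCL11b-ID2+ (adjusted p = 0.00079, limma). The coactivator gene Maml3 went the other way, with 17.4, 46.1 and 18.3 in BCL11b-ID2+, against 189, 181 and 207 in BCL11b-ID2- (7.06-fold lower, adjusted p = 0.00589).

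Hey1, a repressor of the Hes-related family, had 51.6, 111 and 93.6 normalised counts in BCL11b+ID2+ at E19.5, against no reads in BCL11b-ID2+, at least 131-fold higher (6.36, adjusted p = 0.00191, limma). Against BCL11b+ID2-, with 0, 10.7 and 0.922, the call (adjusted p = 0.0148) was lost with edgeR (0.108), without BCL11b+ID2+ library 2 (0.0578) or 4 (0.0556) and without BCL11b+ID2- library 1 (0.0908) or 4 (0.0530). Furin, a protease that matures Notch receptors among many proteins, had 26.9, 26.0 and 5.81 in DN2, against 632, 578.5 and 598 in BCL11b+ID2- (30.8-fold lower, adjusted p = 2.57e-09). BCL11b+ID2- was in turn 6.13-fold above BCL11b-ID2-, which had 68.3, 138 and 88.4 of Furin (adjusted p = 4.16e-05).

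At E19.5 the T-lineage targets Il2ra, Tcf7, Gata3 and Ptcra did not follow one pattern. Il2ra, which Notch induces at the DN2 stage, had 7149, 8762 and 7563 normalised counts in DN2, against 83.3, 59.99 and 118 in BCL11b+ID2- (89.8-fold higher, adjusted p = 1.92e-12). Because CD25 marks DN2 cells, this difference is in part set by how DN2 is defined and is no separate result on Notch. Il2ra had 2626, 2259 and 2038 in BCL11b+ID2+, 26.5-fold above BCL11b+ID2- (adjusted p = 9.07e-10, limma). Tcf7, which encodes TCF-1, was 4.68-fold lower in BCL11b+ID2+ than in BCL11b+ID2- (adjusted p = 3.17e-07) and 3.72-fold higher in BCL11b+ID2- than in BCL11b-ID2- (adjusted p = 1.37e-06). Gata3 was 9.43-fold higher in BCL11b+ID2- than in BCL11b-ID2- (adjusted p = 1.17e-09). Ptcra, the pre-T-cell receptor alpha chain gene, had 32.5, 137 and 18.9 in DN2, against 8.68, 0 and 0.922 in BCL11b+ID2- (19.6-fold higher, adjusted p = 0.0208), a call lost without DN2 library 2 (0.112), without BCL11b+ID2- library 2 (0.0967) or 4 (0.0597), with edgeR (0.0909) and with DESeq2 (0.0752). Myc, another T-lineage Notch target, was 2.21-fold lower in BCL11b-ID2+ than in BCL11b-ID2- (adjusted p = 0.00138). At E15.5 limma called none of these genes in a comparison between gates. Ptcra lay the other way there, at 9.57 and 14.7 in DN2, against 136, 15.2 and 305 in BCL11b+ID2-. Il2ra overlapped between BCL11b+ID2+ (2178, 2931 and 391) and BCL11b+ID2- (2402, 564 and 3226), and Tcf7 in each of its pairs. Gata3 was again higher in BCL11b+ID2- (467, 1413 and 1891) than in BCL11b-ID2- (62.5, 147 and 268), and Myc again lower in BCL11b-ID2+.

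**Figure D5:**
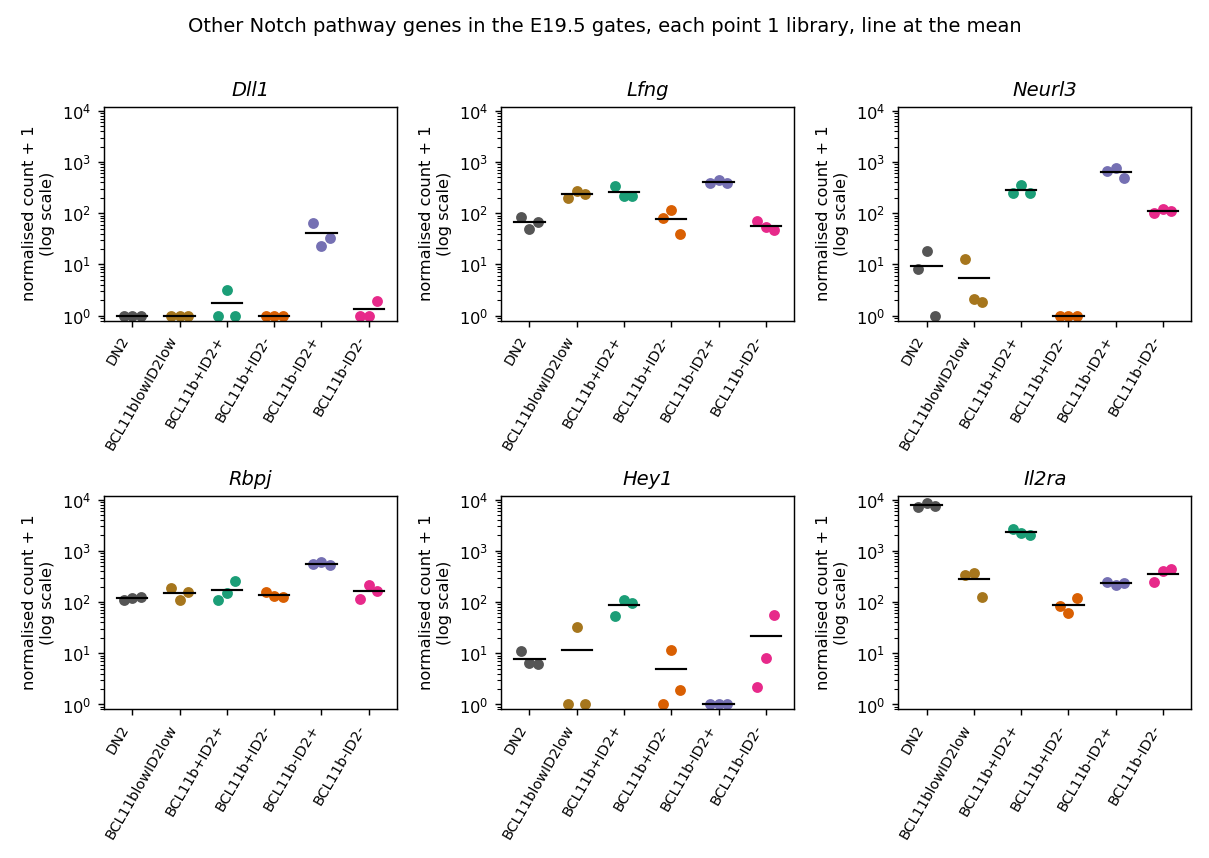
Normalised count plus 1 (log scale) of 6 other Notch pathway genes at E19.5, by gate, with 1 point a library and a line at the mean of each gate. Neurl3 and Lfng are high in both ID2-positive gates, Dll1 and Rbpj in BCL11b-ID2+, Hey1 in BCL11b+ID2+ and Il2ra in DN2.

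Counted over the 41 other pathway genes tested at E19.5, 5 were called in BCL11b+ID2+ against BCL11b+ID2-, 4 higher and 1 lower, where 8.73% of all genes were called in either direction. In BCL11b-ID2+ against BCL11b-ID2- 9 were called, 7 higher and 2 lower (15.9% of all genes). In BCL11b+ID2- against BCL11b-ID2- 7 were called, 3 higher and 4 lower (14.9%), and in BCL11b+ID2+ against BCL11b-ID2+ 6, 3 higher and 3 lower (6.03%). DN2 had 8 calls against BCL11b+ID2-, 5 higher and 3 lower (16.2%), and 6 against BCL11b-ID2-, 4 higher and 2 lower (2.98%). The higher calls of DN2 against BCL11b+ID2- include Il2ra, the marker of DN2. Il2ra was also higher in DN2, at 7149 to 8762, than in BCL11b-ID2-, at 243 to 434. These DN2 counts are thus in part set by how DN2 is defined. BCL11blowID2low had 7 calls against BCL11b-ID2-, 5 higher and 2 lower (14%). It had 4 against BCL11b+ID2-, 2 higher and 2 lower (6.91%), and 5 against BCL11b+ID2+, 1 higher and 4 lower (4.43%). The median log2 difference of the 41 was 0.23 in BCL11b+ID2+ against BCL11b+ID2-, with 0.00 over all genes, and 0.33 in BCL11b-ID2+ against BCL11b-ID2-, with -0.01 over all genes. Numb, an inhibitor of Notch receptors, was 4.15-fold higher in BCL11b-ID2+ than in BCL11b-ID2- (113 ± 42.9 against 27.3 ± 11.8, SD, n = 3 each; adjusted p = 0.00588, limma). The calls of Dtx4, Ep300, Kat2a, Pofut1 and Psen2 were each lost in at least 1 other fit.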

How the data were processed

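RNA of sorted thymus cells was measured in 32 libraries. Reads were trimmed with Trim Galore 0.50, aligned with STAR 2.6.0a to GRCm38 and scaled with DESeq2 1.18.1, per the submitters' processing notes. The authors deposited 1 table a stage, whose signal values are gene counts divided by size factors. Dividing each library by its value of 1 read gave whole reads, within 0.01 reads, for 100% of the values above 0, so depth is known. The kit's strand and the counter's strand setting are not given in the sources used here, so reads of overlapping or antisense genes may be included. The E15.5 columns carry barcode numbers and were matched to the samples through them, and no column of another sample was found (0).

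A gene was kept where 3 or more libraries of its stage reached a value of 10, which left 10289 at E15.5 (9115 removed) and 13840 at E19.5 (12404 removed). The main test was limma 3.58.1 in R 4.3.3, with trend and robust settings, on log2(value + 1), where the pseudocount of 1 understates the change of low genes. All gates of a stage entered 1 fit, with 19 comparisons over both stages including the tests of any difference between gates. P-values were adjusted over all genes tested in a comparison and called under 0.05. A fold against a gate with no reads takes 3 reads over the gate as the floor, and with 1 to 3 reads the ratio has a 95% counting interval, which covers counting error only. Alternatives were a pseudocount of 8, no filter, TMM scaling, edgeR 4.0.16 and DESeq2 1.42.0 on the recovered reads, library weights, a block for the library number, only the gates compared, and leaving out each library. The method was tested on simulated data with the same dispersion for every gene, large shifts and independent libraries. The real libraries may differ from these settings, so that test does not vouch for single calls.

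The members and gene lists were chosen with earlier results of these data known. The 7 members are always named. Other Notch pathway genes are named where they pass in a comparison between gates, and the 3 genes most like each member by Pearson correlation over the 18 E19.5 libraries, leaving out predicted, mitochondrial and ribosomal genes. Of the members, 6 have a promoter in the RefSeq table.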

Additional observations from a re-analysis of the deposited data

Results flagged for a closer look

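Of the members, 3 had an ID2 difference at E19.5 that itself differed between BCL11b-positive and BCL11b-negative gates, by the interaction in limma over 13840 genes: Hes1 with 3.94 (higher with ID2 among BCL11b-positive gates and lower among BCL11b-negative ones), Jag1 with -3.05 and Notch2 with 1.31. Of the 41 other Notch pathway genes tested at E19.5, 9 did, 4 with a positive and 5 with a negative interaction. Over all genes 9.28% did, 4.57% positive and 4.7% negative. The interaction was -4.31 for Dll1, -2.06 for Furin, -1.52 for Gata3, 8.19 for Hey1 and 5.33 for Il2ra. It was 1.29 for Myc, 5.60 for Neurl3, -1.56 for Rbpj and -2.78 for Tcf7. Dll1 was not called with edgeR (adjusted p = 0.965) or DESeq2 (0.688). In limma it was lost without BCL11b+ID2+ library 1 (0.058) or 4 (0.0653) and without BCL11b-ID2+ library 1 (0.0795). The same held without BCL11b-ID2- library 1 (0.0569) or 2 (0.059). Rbpj was lost without the filter (0.0639), with edgeR (0.0583) and without any of 8 single libraries, and Furin without BCL11b-ID2+ library 1 (0.0524) or BCL11b-ID2- library 1 (0.0581). No cause was tested.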

How the results depend on the processing

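Of 33 calls of members between gates, 10 were lost in at least 1 other fit, 8 with all libraries and 9 without a single library, and 0 reversed. Of 66 calls of other Notch genes, 22 were lost and 0 reversed. In BCL11b+ID2+ against BCL11b+ID2- at E15.5, the 2 members called became 1 with library weights, with edgeR and without the filter, 0 with only the gates compared, and 0 to 2 without a single library. In BCL11b-ID2+ against BCL11b-ID2- at E15.5, the 1 became 0 without the filter, with the replicate block and with only the gates compared, 2 with library weights, 3 with DESeq2, and 0 without any 1 library. In BCL11b+ID2+ against BCL11b-ID2+ at E19.5, the 1 became 0 without the filter, 3 with a pseudocount of 8, 4 with DESeq2, 2 with library weights and with only the gates compared, and 0 to 1 without a single library. In DN2 against BCL11b-ID2-, the 1 became 2 with DESeq2, library weights, the replicate block and only the gates compared, and 1 to 2 without a single library (2 without BCL11b-ID2- library 2 or DN2 library 4). In BCL11blowID2low against BCL11b+ID2- the 3 became 1 with only the gates compared and 2 to 3 without a single library. Without a single library the other counts were 2 to 2 for any gate at E15.5, and at E19.5 2 to 4 for BCL11b+ID2- against BCL11b-ID2-, 3 to 4 for BCL11b+ID2+ against BCL11b+ID2- and for DN2 against BCL11b+ID2-, 4 to 4 for BCL11b-ID2+ against BCL11b-ID2-, 2 to 3 for the interaction, 2 to 2 and 5 to 5 for BCL11blowID2low against BCL11b+ID2+ and BCL11b-ID2-, and 6 to 6 for any gate. Apart from construction (fewer libraries or genes), the cause was not tested. The criterion used for pairing by library number (every same-numbered pair correlating over 0.1) was not met. A weak pairing would also miss this bar, so it cannot show that the libraries are unpaired. The main fit had no term for the number. Deviations of same-numbered libraries correlated at -0.0458 to 0.0388 at E15.5 (26 pairs, median 0.0145) and 0.00202 to 0.129 at E19.5 (45 pairs, median 0.0538, 1 over 0.1), those of other pairs at -0.0379 to 0.0488 (median -0.00858) and -0.105 to 0.0352 (median -0.0205). On average 10 of 14 E15.5 libraries and 17 of 18 E19.5 libraries correlated best with their own number, a hint from the data of a weak shared component. The block for the number moved no other count of members. Depth limits Nrarp and the members near 0, where a difference of a few reads decides the fold.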
